A study of Mus musculus with 20 samples.

Results

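The G1 cyclins, their kinases and their inhibitors are described here across 20 libraries from leukemic mouse spleens: the D-type cyclins Ccnd1, Ccnd2 and Ccnd3, the E-type cyclins Ccne1 and Ccne2, the kinases Cdk4 and Cdk6, the inhibitors Cdkn1b and Cdkn2a, and the retinoblastoma gene Rb1. They were found by gene symbol, and all 10 were present among the 26099 rows of the acute table and the 26486 rows of the survival table. The set was proposed with the knockout and control values of these libraries already known, Ccnd1 in the survival arm above all. The comparisons of the 10 genes are therefore a description, and each adjusted p below says only where a gene stands in a fit over all genes.

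All groups were mouse T-cell acute lymphoblastic leukemias with a conditional knockout of Acly, which encodes ATP-citrate lyase, transplanted intravenously into sub-lethally irradiated mice. In the acute arm, overtly leukemic mice were given tamoxifen at 3 mg per mouse (KO, 4 libraries) or its corn oil carrier alone (WT, 6 libraries), with the spleen collected after 72 h. For the survival arm, the same agents were given 48 h after transplantation (KO, 5 libraries; WT, 5 libraries), and spleens were taken when mice reached a humane endpoint. The libraries called WT thus carry the conditional allele without tamoxifen, and an effect of tamoxifen and an effect of the deletion cannot be told apart. The labels used here give no age, sex or strain, no recombinase promoter and no number of independent leukemias, so p-values measure the spread between libraries only. Acly itself averaged 5670 ± 766 normalized counts in acute KO libraries (SD, n = 4), against 7735 ± 298 in acute WT libraries (n = 6). Survival libraries averaged 3091 ± 712 in the KO group and 7889 ± 561 in the WT group (n = 5 each).

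D-type cyclins are made in response to growth signals and bind the kinases CDK4 and CDK6, which phosphorylate the retinoblastoma protein and so free E2F transcription factors. E2F activity raises cyclin E, which with CDK2 completes that phosphorylation and carries the cell into S phase. INK4 proteins block CDK4 and CDK6, and CIP/KIP proteins such as p27, the product of Cdkn1b, bind the cyclin and kinase complexes. In mice, cyclin D3 and CDK6 are known to be needed in developing T cells and in T-cell leukemia, and in the human disease loss of CDKN2A is a frequent lesion.

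The values are counts normalized by the submitters, with library totals of 19432235 to 20731983 in the acute table and 19998354 to 21623571 in the survival table. The suspensions were not sorted for leukemic cells as far as the labels say. Markers of several other cell types were higher in the acute KO libraries. Neutrophil markers summed to 183264 to 617847 normalized counts in acute KO libraries, against 12301 to 50838 in acute WT libraries, with 15 of 15 tested markers higher. Monocyte and macrophage markers (15 of 15), B-cell markers (11 of 12), plasma-cell markers (5 of 6) and natural killer markers (7 of 7) were higher too. Fewer were higher among dendritic (3 of 7), megakaryocyte (1 of 5), stroma and endothelium (1 of 9) and erythroid markers (0 of 13). Of the T-cell markers, 16 of 18 were lower. Over all genes in that arm 16.7% were called higher and 14.7% lower. The summed T-cell markers reached 170412 to 228629 in acute KO libraries, against 259442 to 270840 in acute WT libraries. At the endpoint they reached 240474 to 265498 in KO libraries and 236571 to 263508 in WT libraries. In such bulk samples, fewer cells of a type and less RNA per cell cannot be told apart.

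Ccnd1 was the D-type cyclin called at the endpoint of the survival arm. There, Ccnd1 had 868, 1088, 561, 505 and 762 normalized counts in the KO libraries, against 297, 273, 273, 333 and 250 in the WT libraries. All 5 KO libraries lay above all 5 WT libraries, and the lowest KO value was well above the highest WT value. The means were 757 ± 236 in KO libraries and 285 ± 31.4 in WT libraries (SD, n = 5 each), a fold of 2.56 (95% interval 1.96 to 3.34). In limma's moderated fit, with Benjamini-Hochberg adjustment over all 16136 genes tested, the log2 fold change was 1.35 ± 0.18 (SE) with an adjusted p of 0.0323. Ccnd1 was the only gene called higher in that comparison and ranked 2 of 16136 by p, after Acly, which was the only gene called lower. The called share of all genes in the survival arm was 0.0124% (0.0062% higher and 0.0062% lower), and of the 10 members 1 was called. Groups did not overlap for 2.01% of all genes tested and, with KO higher, for 1.21%.

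The call for Ccnd1 in the survival arm was close to the threshold, while its size was steady. Over 19 other settings the log2 fold change stayed between 1.21 and 1.49, the adjusted p ran from 0.00722 to 0.148, and the gene was called in 10 of them. It was not called when KO 1 (0.0688), KO 5 (0.0825), WT 1 (0.117), WT 2 (0.131), WT 3 (0.148) or WT 5 (0.0844) was left out, nor when the mean-variance trend was dropped (0.145), the adjusted p standing in brackets. The sum of the listed stroma and endothelium markers was 8038, 8769, 6203, 6023 and 8125 in the KO libraries, against 4768 to 6277 in the WT libraries. Pdgfrb and Pecam1 made up most of that sum, with medians of 3381 and 2148 in KO libraries and 2711 and 1943 in WT libraries. The 3 KO libraries with the highest sums were also the 3 with the most Ccnd1. A link between them was not tested, and how many other genes show the same match was not counted. None of the 9 tested markers of that list was called by limma, with 4 at an unadjusted p under 0.05. Of the 12 listed markers, 7 had a higher median in KO libraries and 5 a lower one. Col1a2 (302 to 1539 in KO libraries, 102 to 446 in WT libraries), Pdgfrb (2867 to 4568 and 2450 to 2861) and Col1a1 (94.5 to 1920 and 127 to 769) were among those with higher medians. Cdh5 (4.82 to 14.3 in KO libraries, 10.9 to 39.6 in WT libraries) and Kdr (2.89 to 12.3 and 8.66 to 29.2) were among those with lower medians. With the stromal score as a covariate, an alternative chosen after the values were seen, the log2 fold change of Ccnd1 was 1.33 with an adjusted p of 0.0523.

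In the acute arm Ccnd1 rose less. It had 329, 471, 537 and 395 normalized counts in the KO libraries, against 277 at the lowest, 296 at the median and 348 at the highest of the WT libraries. The groups overlapped, since KO 1 lay inside the WT range. The means were 433 ± 90.3 in KO libraries (n = 4) and 307 ± 29.5 in WT libraries (SD, n = 6), and the log2 fold change was 0.48 ± 0.13 with an adjusted p of 0.0144 by limma with Benjamini-Hochberg adjustment. Without KO 3 the adjusted p was 0.0514. The change in the survival arm exceeded that in the acute arm by 0.88 ± 0.24 on the log2 scale (adjusted p = 0.0119, limma, fitted on 15673 genes tested in both tables). In that test of the difference 2 of 10 members were called, Ccnd1 higher and Ccnd2 lower, where 20.2% of all genes were (9.39% higher and 10.9% lower), a share close to that of the members. The difference for Ccnd1 was 0.40 and not called (adjusted p = 0.228) with libraries scaled to T-cell receptor beta transcripts, which put the median difference of all genes at −0.44. With a score of other-cell markers as a covariate it was 1.62 and not called (adjusted p = 0.279).

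**Figure D1:**
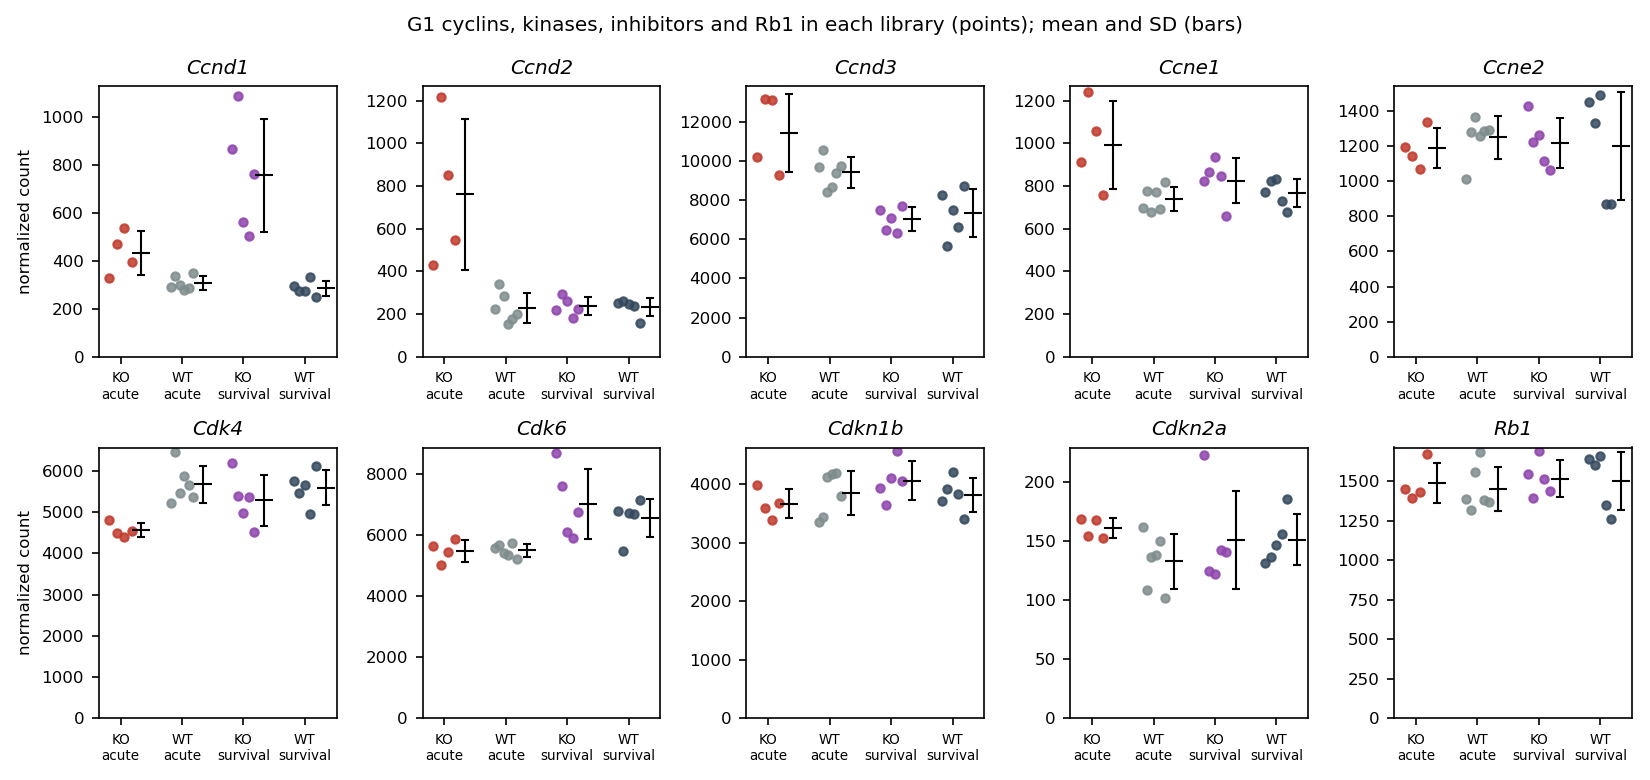
Normalized counts of the 10 genes in each library (vertical axis, linear from 0), with KO left of WT in each arm. Each point is 1 library, and the black bars give the group mean and SD. Ccnd1 separates the survival groups, at 505 to 1088 in KO libraries and 250 to 333 in WT libraries, and Ccnd2 separates the acute groups.

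Ccnd2 rose in the acute arm, as Ccnd1 did, but did not pass the test at the endpoint. The acute KO libraries had 429, 1215, 852 and 545 normalized counts of Ccnd2, and the 6 acute WT libraries had 154 at the lowest, 212 at the median and 341 at the highest. The groups did not overlap, and the KO libraries differed among themselves more than the WT libraries did. Ccnd2 averaged 760 ± 352 in acute KO libraries (SD, n = 4) and 231 ± 70.4 in acute WT libraries (n = 6). The fold was 3.15 (95% interval 2.05 to 4.84) and the log2 fold change 1.65 ± 0.28, with an adjusted p of 0.00118 by limma with Benjamini-Hochberg adjustment over 16363 genes. In all, 4 of 10 members were called in the acute arm, where 31.4% of all genes were (16.7% higher and 14.7% lower), and groups did not overlap for 22.7% of genes (12.7% with KO higher).

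Ccnd2 was set beside the markers of other cells in the acute arm. A score of those markers, the mean centred log2 value, was 0.32, 1.39, 1.17 and 0.63 in KO libraries 1 to 4 of the acute arm, against −0.88 to −0.13 in the WT libraries. Ccnd2 followed the same order over the 4 KO libraries, and how many other genes did so was not counted. The WT libraries followed it in part. WT 2 had the highest WT score (−0.13) and the most Ccnd2 (341). WT 1 had the lowest score (−0.88) with 222, while WT 4 had 154 at −0.71. Because the score does not overlap between the groups, the part of other cells and the part of the deletion in these counts cannot be told apart. With the score as a covariate the acute log2 fold change was −0.20 for Ccnd2, −0.27 for Ccnd1, −0.19 for Ccne1 and −0.37 for Cdk4, and limma called 0 of 16363 genes, with 1336 at an unadjusted p under 0.05. Without KO 2 and KO 3, the libraries with the highest scores, Ccnd2 was still called, with a log2 fold change of 1.12, while Ccnd1 (0.24, adjusted p = 0.225) and Ccne1 (0.17, adjusted p = 0.279) were not.

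At the endpoint Ccnd2 had 219, 295, 260, 183 and 224 normalized counts in KO libraries, against 254, 263, 247, 238 and 160 in WT libraries, and the groups overlapped widely. The log2 fold change was 0.028 ± 0.16, and the 95% interval of the fold ran from 0.806 to 1.29. The change of Ccnd2 in the survival arm was below that in the acute arm by a difference of −1.63 ± 0.34 on the log2 scale (adjusted p = 0.00217, limma). With the other-cell score as a covariate that difference was 0.26 and not called (adjusted p = 0.906).

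Ccnd3, the D-type cyclin required in early thymocytes, had the highest level per length of the 3. In the acute arm it had 10195, 13143, 13132 and 9302 normalized counts in KO libraries, and 8387 at the lowest, 9545 at the median and 10571 at the highest of the WT libraries. KO 2 and KO 3 stood above the WT range, while KO 1 and KO 4 lay within it. Its log2 fold change was 0.27 ± 0.10 with an adjusted p of 0.0623, short of the threshold. Over 20 other settings of the acute limma fit, Ccnd3 was called in 5, with an adjusted p from 0.0106 to 0.750. Survival Ccnd3 values were 7478, 6477, 7095, 6342 and 7712 in KO libraries, against 8251, 5661, 7487, 6627 and 8709 in WT libraries. The KO values lay inside the WT range, and the fold interval was 0.823 to 1.13. A separate row, Ccnd3-ps, never exceeded 4.15 normalized counts.

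Ratios within a library do not depend on how libraries were scaled, but they can still depend on the mix of cells. The ratio of Ccnd1 to Ccnd2 in normalized counts was 0.387 to 0.768 in acute KO libraries, against 0.995 to 1.80 in acute WT libraries. At the endpoint it was 2.16 to 3.96 in KO libraries and 1.04 to 1.56 in WT libraries. The groups were apart in both arms and in opposite directions: the mean log2 ratio differed by −1.18 (KO minus WT) in the acute arm and by 1.33 in the survival arm. The ratio of Ccnd1 to Ccnd3 was 0.0790 to 0.168 in survival KO libraries, against 0.0287 to 0.0502 in survival WT libraries. The acute groups overlapped in this ratio, at 0.0323 to 0.0424 in KO libraries and 0.0300 to 0.0358 in WT libraries. The ratio of Ccnd3 to Ccnd2 was 10.8 to 23.8 in acute KO libraries, against 29.2 to 56.3 in acute WT libraries. The survival groups overlapped in it, at 22.0 to 34.6 in KO libraries and 21.5 to 54.3 in WT libraries. These ratios are given without a test, since the genes were chosen on the same values.

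**Figure D2:**
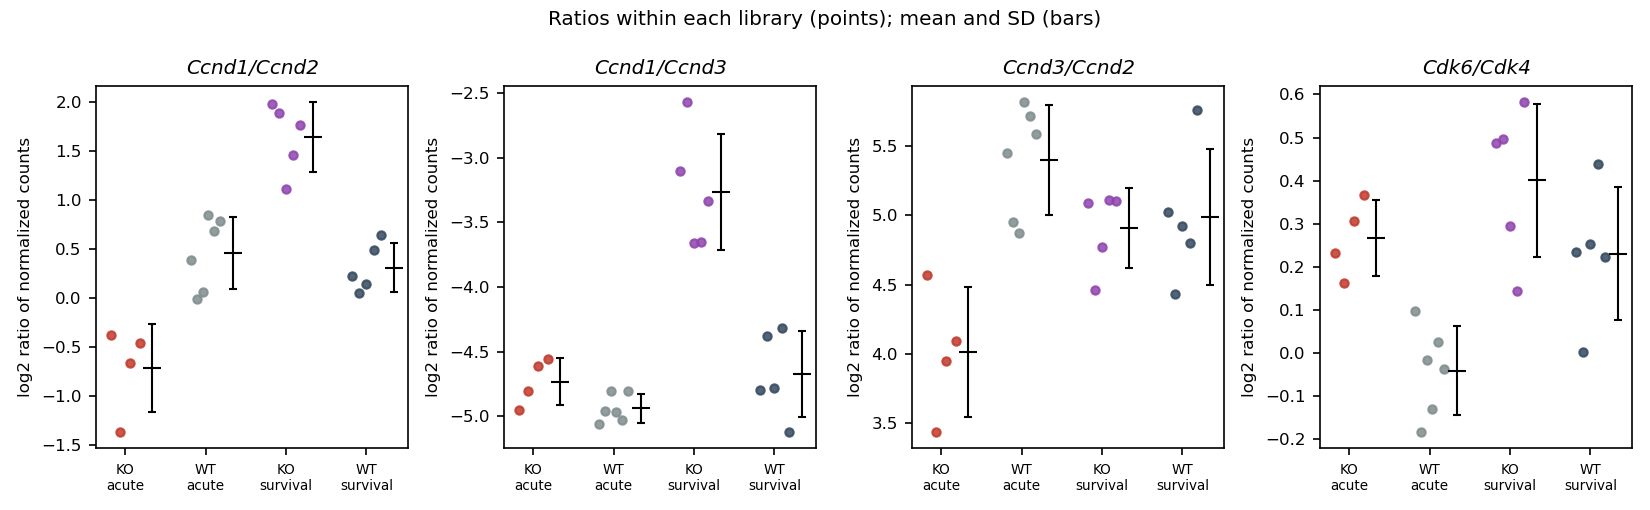
Ratios between pairs of the genes within each library (vertical axis, log2 of the ratio of normalized counts), with KO left of WT in each arm, 1 point per library and black bars for the mean and SD. The Ccnd1 to Ccnd2 ratio lies below the WT libraries in acute KO and above them in survival KO.

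Levels were compared between genes per kilobase of the longest coding transcript. Ccnd1 reached 202 ± 63.2 normalized counts per kilobase in survival KO libraries, against 76.3 ± 8.40 in survival WT libraries. Ccnd2 had 37.3 per kilobase in survival KO libraries and 36.7 in survival WT libraries, and Ccnd3 had 3323 and 3477. In survival WT libraries the order of levels per kilobase was Ccnd3, Cdk4 (2722), Cdkn1b (839), Cdk6 (570), Ccne2 (400), Ccne1 (384), Rb1 (323), Cdkn2a (169), Ccnd1 and Ccnd2. Neighbours whose ranges over the 5 libraries overlapped were Ccnd3 with Cdk4, Cdk6 with Ccne2, Ccne2 with Ccne1, and Ccne1 with Rb1. In survival KO libraries Ccnd1 stood above Cdkn2a, which had 169 per kilobase, and their ranges overlapped (135 to 291 and 137 to 250). With the length of all exons joined in place of 1 transcript, Cdk4 (1720 per kilobase) and Cdkn1b (839) stood above Ccnd3 (837) in survival WT libraries.

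The genes most like each D-type cyclin were sought by the root-mean-square difference of log2 values, centred on the WT mean of each table, over 20 libraries and 15673 genes. For Ccnd1 these included Khdc1a (0.298), Nebl (0.299), Lgalsl (0.308) and Icos (0.309), where the values of Ccnd1 itself had a root mean square of 0.754. For Ccnd2 they were Marchf1 (0.210), Btk (0.235), Tlr1 (0.236), Acsl1 (0.237) and Dhx58 (0.238), against 0.830 for Ccnd2 itself. For Ccnd3 they were Irf2bp2 (0.0955), Sft2d1 (0.105), Dbnl (0.106), Gm49909 (0.108) and Tle5 (0.111), against 0.211. The libraries share tissue and scaling, so these differences are a description with no p.

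**Figure D3:**
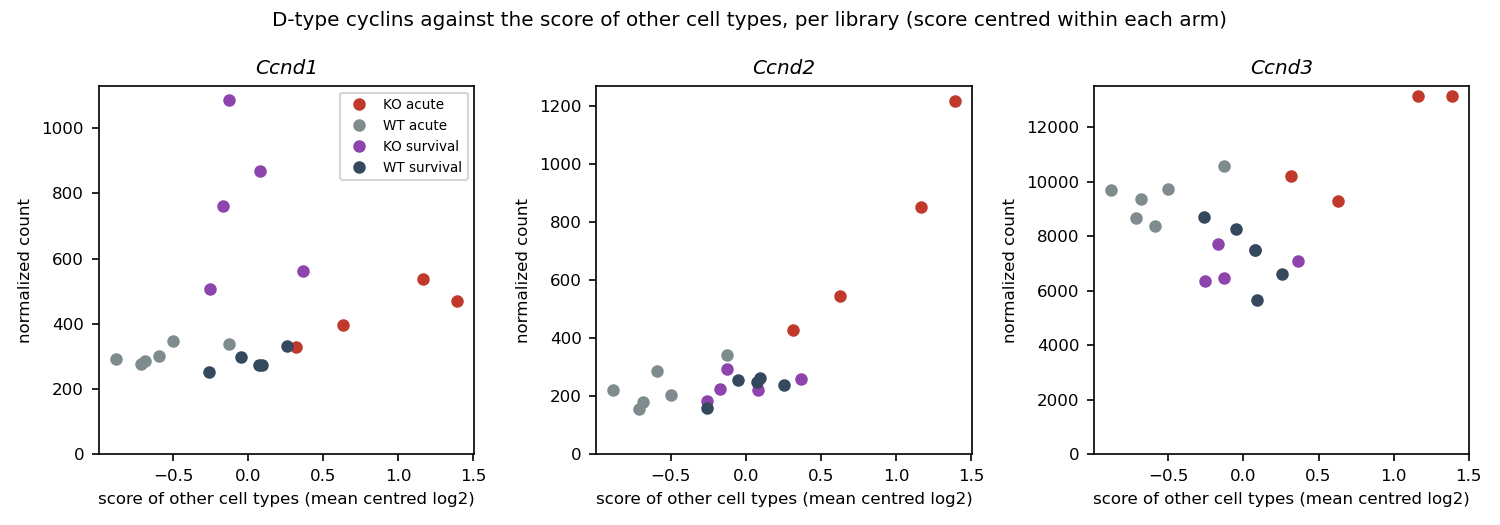
Normalized counts of Ccnd1, Ccnd2 and Ccnd3 (vertical axes, linear from 0) against the score of other-cell markers (horizontal axis, mean centred log2 value), 1 point per library. The score was centred within each arm, so it is not compared between arms. Within the acute arm, KO libraries hold the highest scores, 0.32 to 1.39, and the highest Ccnd2. In the survival arm, the high Ccnd1 of KO libraries occurs at scores from −0.26 to 0.37, against −0.26 to 0.26 in WT libraries. The score averages over several cell types, and their part in Ccnd1 was not tested.

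Of the E-type cyclins, which activate CDK2 at the entry to S phase, Ccne1 rose in the acute arm and Ccne2 did not pass the test. Ccne1 had 912, 1240, 1058 and 759 normalized counts in acute KO libraries, against 680 at the lowest, 733 at the median and 821 at the highest of the acute WT libraries. KO 1, KO 2 and KO 3 were above the WT range and KO 4 was inside it. The log2 fold change of Ccne1 was 0.40 ± 0.12 with an adjusted p of 0.0199 (limma, Benjamini-Hochberg), and it was not called without KO 2 (0.0599) or KO 3 (0.0641). Survival values of Ccne1 were 822, 865, 938, 847 and 658 in KO libraries, and 773, 822, 834, 732 and 678 in WT libraries. These groups overlapped, with a fold interval of 0.929 to 1.24. Ccne2 had 1072 to 1339 in acute KO libraries and 1015 to 1368 in acute WT libraries, and 1063 to 1426 in survival KO libraries and 868 to 1489 in survival WT libraries. Its log2 fold changes of −0.072 (acute) and 0.053 (survival) did not pass the test in either arm.

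Cdk4, the kinase partner of the D-type cyclins, was the member that fell in the acute arm. It had 4801, 4485, 4398 and 4547 normalized counts in KO libraries, against 5215 at the lowest, 5554 at the median and 6460 at the highest of the WT libraries. All 4 KO libraries lay below all 6 WT libraries. The fold was 0.806 (95% interval 0.737 to 0.881), and the log2 fold change was −0.31 ± 0.059 with an adjusted p of 0.00211 by limma with Benjamini-Hochberg adjustment. When libraries were scaled to the summed T-cell receptor beta transcripts, the median log2 fold change of all genes was 0.34 (−0.023 as deposited), and Cdk4 stood at 0.057, below that median and not called. At the endpoint Cdk4 had 6192, 5400, 4975, 5357 and 4519 in KO libraries, and 5762, 5469, 5651, 4948 and 6113 in WT libraries, and the groups overlapped (fold interval 0.835 to 1.07).

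Promoter sequence is shown for Cdk4, which fell, and Ccne1, which rose, since these are the called members for which a RefSeq promoter was at hand. Each line gives the 250 bases before the transcription start, 5′ to 3′ on the gene's strand, from RefSeq on build GRCm38.p6. Cdk4 lies at chr10:127063285-127063534 on the plus strand and Ccne1 at chr7:38107491-38107740 on the minus strand. Capitals mark the E-box CACGTG, which MYC with MAX can bind, and the Sp1 box GGGCGG, read on either strand, so that it also appears as CCGCCC.
Cdk4: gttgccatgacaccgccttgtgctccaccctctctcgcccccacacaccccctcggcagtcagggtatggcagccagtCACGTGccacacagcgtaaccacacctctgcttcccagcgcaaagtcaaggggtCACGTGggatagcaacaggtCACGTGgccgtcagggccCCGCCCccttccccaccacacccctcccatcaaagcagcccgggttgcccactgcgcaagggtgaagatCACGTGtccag
Ccne1: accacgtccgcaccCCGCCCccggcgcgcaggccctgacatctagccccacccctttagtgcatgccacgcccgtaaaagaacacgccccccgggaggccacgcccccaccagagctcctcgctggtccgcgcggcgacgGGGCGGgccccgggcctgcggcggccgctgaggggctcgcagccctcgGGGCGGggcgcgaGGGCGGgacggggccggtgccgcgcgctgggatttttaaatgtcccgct
The Cdk4 window held 4 copies of CACGTG, with first bases at −172, −118, −98 and −11 from the start, and the Ccne1 window held 0. Of 32851 mouse promoters, read over the same 250 bases, 6.02% held at least 1 copy and 7 held at least 4. The Ccne1 window held 4 copies of GGGCGG (first bases at −236, −110, −62 and −49), and the Cdk4 window held 1, at −80. At least 1 copy was found in 32.7% of promoters and at least 4 in 4.09%. The E2F-type words TTTCCCGC and TTTGGCGC were in neither window, and only 0.895% and 0.417% of all promoters held them. Other forms of E2F site were not searched. The G and C content was 64.4% for Cdk4 and 76% for Ccne1, against a median of 52.4% over all promoters. These matches describe letters in a window and were not compared with binding.

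Cdk6, the other partner of the D-type cyclins, did not pass the test in either arm. It had 5638, 5020, 5440 and 5865 normalized counts in acute KO libraries, against 5216 at the lowest, 5487 at the median and 5749 at the highest of the acute WT libraries, and the fold interval was 0.925 to 1.08. Survival values of Cdk6 were 8683, 7620, 6097, 5915 and 6762 in KO libraries, and 6777, 5478, 6731, 6701 and 7132 in WT libraries, with a fold interval of 0.909 to 1.24. KO 1 and KO 2, the libraries with the most Ccnd1, stood above the WT range. The ratio of Cdk6 to Cdk4 was 1.12 to 1.29 in acute KO libraries and 0.881 to 1.07 in acute WT libraries, and the groups did not overlap. The survival groups overlapped, at 1.104 to 1.496 in KO libraries and 1.002 to 1.354 in WT libraries.

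The inhibitors and Rb1 did not pass the test in either arm. Cdkn1b had 3994, 3601, 3391 and 3681 normalized counts in acute KO libraries and 3350 to 4198 in acute WT libraries. At the endpoint it had 3946, 3644, 4102, 4569 and 4055 in KO libraries and 3713, 3924, 4211, 3837 and 3409 in WT libraries (fold interval 0.958 to 1.18). Cdkn2a, whose row holds the transcripts of both the INK4 protein p16 and the p53 regulator ARF, was detected in every library. It had 169, 155, 168 and 153 in acute KO libraries, against 102 at the lowest, 137 at the median and 162 at the highest of the acute WT libraries, with an adjusted p of 0.138 by limma. Survival values of Cdkn2a were 223, 124, 122, 143 and 141 in KO libraries and 131, 137, 147, 156 and 186 in WT libraries. KO 1 stood alone above the WT range. Rb1, the substrate of the cyclin D kinases, had 1393 to 1673 in acute KO libraries and 1319 to 1687 in acute WT libraries. At the endpoint it had 1391 to 1691 in KO libraries and 1262 to 1657 in WT libraries. Its fold intervals were 0.913 to 1.15 in the acute arm and 0.890 to 1.15 in the survival arm.

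**Figure D4:**
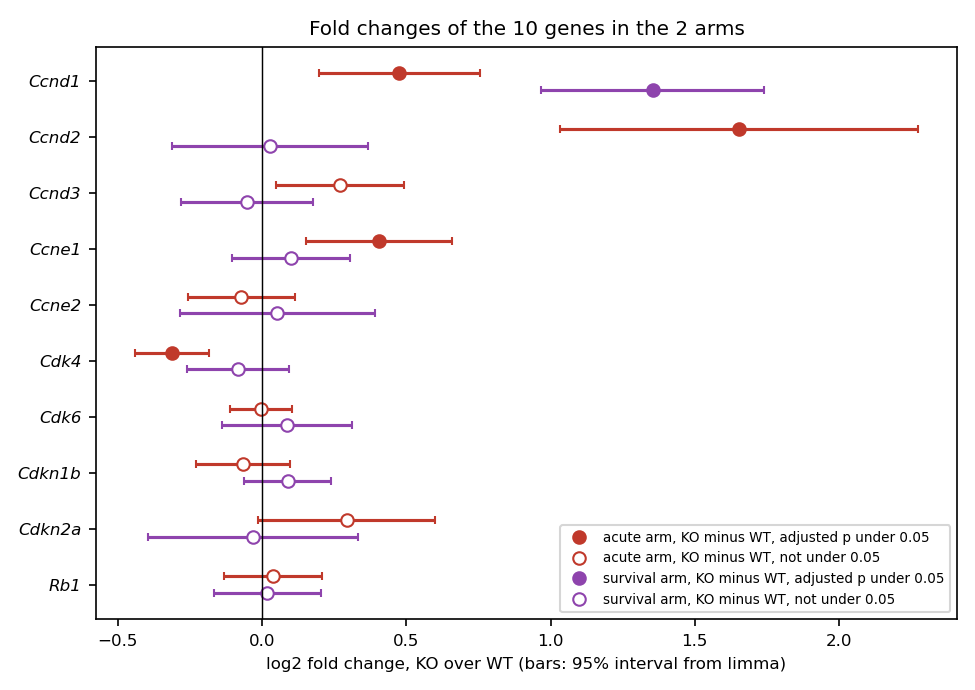
Log2 fold changes (KO over WT, horizontal axis) of the 10 genes in the acute and survival arms, with 95% intervals from limma and filled points for adjusted p under 0.05. Among the survival intervals, that of Ccnd1 alone lies away from 0 among the 10, and in the acute arm Ccnd2 has the largest estimate, 1.65.

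The median log2 fold change of the 10 genes was 0.15 in the acute arm, where that of all genes tested was −0.023. It was 0.041 in the survival arm, where that of all genes was 0.0087.

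**Figure D5:**
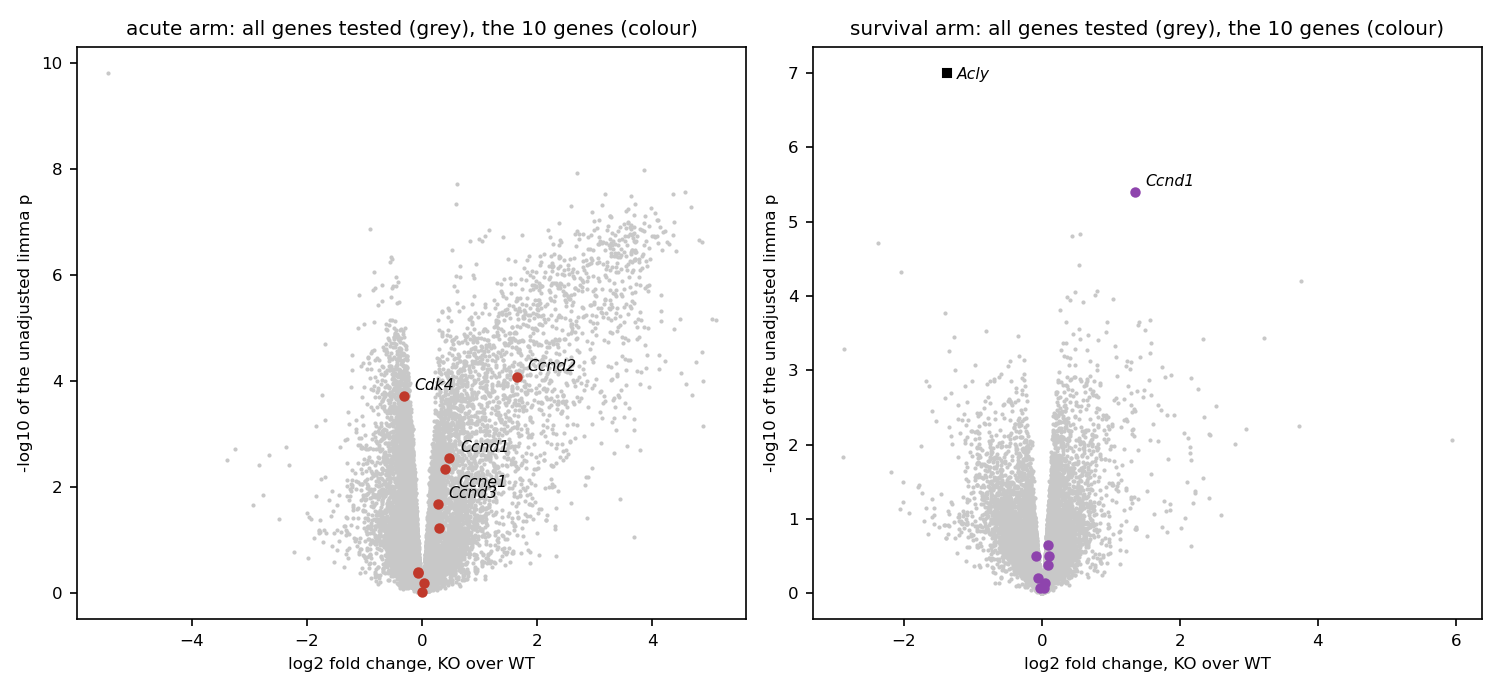
Log2 fold change (horizontal axis, KO over WT) against −log10 of the unadjusted p (vertical axis) for every gene tested in each arm, with the 10 genes marked. Ccnd1 and Acly are the only called genes in the survival arm. In the acute arm the 4 called members lie among 5140 called genes.

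Of 46 other G1/S genes on a fixed list, 43 were tested in the acute arm, where 8 rose, 8 fell and 27 did not pass the test. Over all genes in that arm 31.4% were called (16.7% higher and 14.7% lower), and nothing particular to this list or to the smaller lists within it is read from their counts. Their median log2 fold change was −0.031. At the endpoint 0 of 45 tested were called by limma, with 9 at an unadjusted p under 0.05. Among the E2F and DP genes, 3 of 10 rose and 2 fell. The repressor genes E2f7 and E2f8 had log2 fold changes of 1.09 ± 0.10 and 0.59 ± 0.065 (adjusted p = 3.8e-05 and 7.1e-05), and E2f7 averaged 451 ± 63.5 normalized counts in KO libraries, against 210 ± 17.5 in WT libraries. E2f2, an activator, had 0.48 ± 0.069 (adjusted p = 0.000366), and E2f4, which acts with pocket proteins in resting cells, had −0.21 ± 0.053 (adjusted p = 0.0118).

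Of the further inhibitors, the INK4 gene Cdkn2d rose (log2 fold change 0.77 ± 0.11, adjusted p = 0.000291), averaging 1854 ± 332 normalized counts in KO libraries and 1076 ± 112 in WT libraries. Cdkn1a, a p53 target that encodes a CIP/KIP inhibitor, rose as well (0.69 ± 0.18, adjusted p = 0.0141), at 164 ± 37.5 in KO libraries and 101 ± 17.9 in WT libraries. Rbl2, a pocket protein gene related to Rb1, had 0.20 ± 0.051 (adjusted p = 0.0105). Of 5 genes of CDK2 and its activation, 1 rose and 3 fell. Cdk2 had 0.20 (adjusted p = 0.0159), while Ccnh, Mnat1 and Cdk7, which together form the CDK-activating kinase, had −0.34, −0.42 and −0.18 (adjusted p = 0.00239, 0.0112 and 0.0224). Of 12 genes of cyclin and inhibitor turnover, Fzr1 rose (0.36, adjusted p = 0.0271) and Cul1 fell (−0.15, adjusted p = 0.0273). Among the upstream regulators, Myc had −0.54 ± 0.10 (adjusted p = 0.00186) and Myb −0.28 ± 0.066 (adjusted p = 0.00831). None of 6 genes of the DREAM complex was called by limma, with 1 at an unadjusted p under 0.05.

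Scaled to T-cell receptor beta transcripts, 29 of the 43 were called and all of them were higher. That scaling moved genes as a whole: the median of all genes was 0.34, and 42.5% of all genes were called higher and 0.593% lower. Under that scaling E2f4 stood at 0.16, Ccnh at 0.026, Cdk7 at 0.18, Cul1 at 0.22 and Myb at 0.093, while Mnat1 stood at −0.055 and Myc at −0.17, all of them below the median of all genes. Without KO 2 and KO 3, 8 were called, where 13.1% of all genes were: Cdkn2d, E2f7, E2f8, E2f2 and Cdk2 higher, and E2f4, Ccnh and Myc lower. Of 18 S-phase genes known as E2F targets, Rrm2 (0.22) and Tk1 (0.21) rose and Mcm6 (−0.17) and Ung (−0.37) fell in the acute arm. As deposited, 31.4% of all genes were called in that arm. Under the T-cell receptor beta scaling Mcm6 stood at 0.19 and Ung at −0.0047, also below that median. At the endpoint limma called 0 of these 18, with 0 at an unadjusted p under 0.05.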

How the data were processed

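PolyA RNA of 20 leukemic spleens was sequenced with strand-specific libraries. The authors deposited 2 tables, acute and survival, whose values are a signal of DESeq-normalized counts per gene, not whole reads. Per the submitters' processing notes, reads were quantified with kallisto 0.46.0 on mouse build GRCm39 and normalized with DESeq. The step from transcripts to genes is not given in the sources used here. Of low values, 57.7 to 83.4% lay within 0.1 of a step, so whole reads were not recovered and the sequencing depth is unknown. Each table was scaled separately, so levels were compared only within a table.

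Values were taken as log2(normalized count + 1), and fold changes on this scale understate those of low genes. Genes reaching 10 in at least 4 libraries (acute) or 5 (survival) were fitted by group means in R 4.3.3 with lmFit and trended eBayes of limma 3.58.1. Two-sided p-values received Benjamini-Hochberg adjustment across every tested gene, and an adjusted p under 0.05 was a call. The difference between arms was fitted over all 20 libraries. Alternatives changed the pseudocount, filter, trend, scaling, covariates, replicate block and libraries. The stromal covariate was chosen after the values were seen. On simulated data with 50 genes changed per fold size, recovery in the acute design (16119 genes) was 48% for changes of 1.25-fold, 82% for 1.5-fold and 90% for 2-fold. Recovery in the survival design (16258 genes) was 24%, 68% and 84%. Changed genes averaged at least 50 normalized counts, and the simulated spread was taken from WT libraries only. The simulated survival set gave 147 called genes, of which 7.48% were unchanged, against 2 called genes in the data. A call in the survival data thus needed a smaller p, and recovery at that p was not measured.

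The members and gene lists were chosen with earlier results of these data known. All 10 members were named. Of each further list, up to 4 called genes with the smallest adjusted p in the acute arm were named, with any called in the survival arm. For the D-type cyclins, the 5 most similar genes were named, except 1 for Ccnd1 that is not reported here. Lengths came from GENCODE on GRCm38, and promoters from RefSeq on GRCm38.p6, which held 6 of the 10 members and not Ccnd1, Ccnd2, Ccne2 or Rb1. Figures were drawn with Python 3.11.15 and matplotlib 3.10.9.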

Additional observations from a re-analysis of the deposited data

Results flagged for a closer look

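Single libraries stood far from the rest of their group in 4 of 40 gene-by-group sets, where chance gives about 1 in 20. Ccne2 was lowest in WT 1 of the acute arm, at 1015 normalized counts. Cdkn2a was highest in KO 1 of the survival arm, at 223. Ccnd2 was lowest in WT 5 of the survival arm, at 160.3. Cdk6 was lowest in WT 2 of the survival arm, at 5478.

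The change of 2 of 10 genes differed between the arms by a test of the difference itself, where 20.2% of all genes did. The log2 change of Ccnd1 in the survival arm exceeded the acute change by 0.88, and that of Ccnd2 differed by −1.63 (survival change less acute change, limma). Neither was called with the other-cell covariate, and with the T-cell receptor beta scaling the Ccnd1 difference was 0.40 and not called.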

How the results depend on the processing

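In the acute arm, 4 members were called (31.4% of all genes). Scaling to T-cell receptor beta gave 9 (43.1% of all genes), the other-cell covariate 0 (2 at an unadjusted p under 0.05; 0 of all genes), omission of KO 2 and KO 3 together 2 (13.1% of all genes), and leaving out single libraries 2 to 5. Of the other G1/S genes 16 were called, against 29, 0 (5 at an unadjusted p under 0.05) and 8 under those 3 settings and 12 to 17 with single libraries left out. Of the S-phase genes 4 were called, against 13, 0 (2 at an unadjusted p under 0.05) and 0, and 2 to 6. At the endpoint, Ccnd1 alone of the members was called. There 0 members were called without the trend or with the stromal covariate, and 0 to 1 with single libraries left out. Over all genes at the endpoint 1 was called higher and 1 lower. Those counts were 0 and 2 without the trend, 1 and 2 with the receptor scaling, and 2 and 2 with the other-cell covariate. The difference between arms gave 2 members, 7 with the receptor scaling (46.7% of all genes, Ccnd1 not among the 7), 0 with the other-cell covariate and 2 to 3 with single libraries left out.

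Same-numbered libraries did not deviate together, with correlations of −0.066 to 0.14 in the acute arm and −0.020 to 0.13 in the survival arm, and 1 of 9 correlated best with its own number. With the replicate number as a block, the acute arm still gave 4 members, with 8 other G1/S genes and 1 S-phase gene. The survival arm gave 0, with Ccnd1 at an adjusted p of 0.0525, and Rb1 stood at 0.017 in the difference between arms.

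Direction turned as follows on the log2 scale; the cause was not tested. With the other-cell covariate the acute values were −0.27 for Ccnd1, −0.20 for Ccnd2, −0.30 for Ccnd3, −0.19 for Ccne1, 0.14 for Cdk6 and 0.15 for Cdkn1b. The differences between arms were then 0.26 for Ccnd2, 0.24 for Ccnd3, 0.31 for Ccne1, −0.062 for Cdk6 and −0.060 for Cdkn1b. With the receptor scaling, which moved the median of all genes to 0.34 in the acute arm, −0.10 in the survival arm and −0.44 between arms, the acute values were 0.30 for Ccne2, 0.057 for Cdk4, 0.37 for Cdk6 and 0.30 for Cdkn1b. The survival values were −0.082 for Ccnd2, −0.011 for Ccne1, −0.057 for Ccne2, −0.024 for Cdk6, −0.022 for Cdkn1b and −0.092 for Rb1. Between arms they were −0.35 for Ccne2, −0.25 for Cdk4, −0.39 for Cdk6 and −0.32 for Cdkn1b. Quantile normalization gave −0.018 for acute Cdkn2a, −0.0085 for survival Ccnd2 and −0.0052 for survival Rb1. Without KO 2 and KO 3 the acute values were 0.025 for Ccne2, 0.066 for Cdk6 and 0.00051 for Cdkn1b, and the stromal covariate gave 0.014 for acute Cdk6. With single libraries left out, acute Cdk6 ran from −0.036 to 0.039 and Rb1 from −0.020 to 0.083. Survival values of Ccnd2 ran from −0.10 to 0.11, Ccnd3 from −0.14 to 0.013, Ccne2 from −0.053 to 0.14, Cdkn2a from −0.18 to 0.044 and Rb1 from −0.042 to 0.056. Between arms Rb1 ran from −0.080 to 0.038. With values as deposited, none of these changes was called except those of Ccnd1, Ccnd2, Ccne1 and Cdk4 in the acute arm and Ccnd2 between arms. With the receptor scaling some turned values were themselves called by limma. These were acute Ccne2, Cdk6 and Cdkn1b (adjusted p = 0.0138, 0.00416 and 0.0136), and Cdk6 and Cdkn1b between arms (0.0300 and 0.0232). The simulated data of these designs gave partial recovery of the smallest fold simulated, 48% in the acute arm and 24% in the survival arm.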
